A study of Mus musculus with 8 samples.

Results

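The 9 genes described here encode the constant regions of the mouse antibody heavy chain (Ighm, Ighd, Ighg3, Ighg1, Ighg2b, Ighg2c, Ighe and Igha) and the J chain (Jchain), which joins antibody units into polymers. They were taken by name, 9 of the 32285 genes in the expression tables. No measured value was used as a rule, but earlier results of these data were known when they were chosen. Their transcripts were counted in single immune cells of deep cervical lymph nodes, which drain the brain and meninges, from C57BL/6 mice. The cells were live cells sorted by FACS on day 20 after an injection into the brain, and the libraries were made with a droplet method that reads the 5′ end of each transcript. A unique molecular identifier (UMI) marks each captured molecule, and levels are given as counts per 1e+06 UMIs of the cells named (CPM). There were 5 expression libraries. The depleted anti-CTLA-4 library came from mice with GL261, a mouse glioma line, given anti-CD20, an antibody that removes B cells, and anti-CTLA-4, an antibody that blocks an inhibitory T cell receptor. The depleted isotype library came from GL261 mice given anti-CD20 and isotype control IgG. The anti-CTLA-4 and isotype libraries came from GL261 mice that kept their B cells and were given anti-CTLA-4 or isotype IgG. The saline control library came from mice injected with DPBS in place of glioma cells and labelled DPBS for treatment, so isotype and saline control differed in both the tumour and the antibody. The 3 groups with B cells also had a receptor library, in which assembled contigs name the constant gene of each cell's heavy chain. Each group had 1 library, and the number of mice behind a library is not given in the sources used here. No difference was therefore tested, and the 95% intervals given with values cover counting error only.

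An antibody's class is set by its constant gene. A B cell that has not yet met antigen makes IgM and IgD from 1 primary transcript by alternative splicing, and the zinc finger protein Zfp318 is needed for the IgD form in the mouse. On class switching, the DNA between the variable region and a downstream constant gene is deleted, and the cell goes on with IgG, IgE or IgA. Before the deletion, a downstream constant gene is transcribed from its own promoter, and this sterile germline transcript encodes no antibody. In lymph nodes switching takes place in and around germinal centres, where B cells mutate their receptors, and plasma cells then secrete the antibody. J chain pairs with IgM and IgA polymers, but plasma cells of other classes also transcribe its gene.

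The heavy chain genes lie in a row on the reverse strand of chromosome 12, here by RefSeq coordinates on build GRCm38.p6 (mm10). Ighm lies at chr12:113418826-113422730 and Ighd at chr12:113407535-113416324, 2.50 kb after it. Downstream follow Ighg3 at chr12:113357442-113361232, Ighg1 at chr12:113326541-113330523 and Ighg2b at chr12:113304314-113307933, at 57.6, 88.3 and 111 kb from Ighm. Ighg2c at chr12:113287389-113288932, Ighe at chr12:113269263-113273248 and Igha at chr12:113256204-113260236 close the row at 130, 146 and 159 kb. Jchain is a separate gene at chr5:88519809-88527897. The IgG genes are close relatives in sequence, so UMIs of Ighg2b, Ighg2c and Ighg3 in particular may be split between them, and Ighd and Ighm share a primary transcript.

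The relation between the classes is seen most directly in cells of 1 clone. Cells of 1 library were joined into a clone when their heavy chains had the same V and J gene and the same nucleotide sequence of the third complementarity determining region (CDR3), which is made anew in each developing B cell. Of 75 clones with at least 2 cells, 12 held cells of more than 1 receptor class: 4 of 21 in the anti-CTLA-4 library, 8 of 23 in the isotype library and 0 of 31 in the saline control library. Such counts depend on the number of switched cells caught. IgG1, IgG2b and IgG2c cells numbered 82, 11 and 13 in the anti-CTLA-4, 21, 18 and 18 in the isotype and 5, 4 and 5 in the saline control receptor library. IgG3 and IgA cells, 5 and 12 in saline control, were fewer in the other libraries. The CDR3 sequences of the 6 clones of this kind with the most cells are shown, since each is a single rearrangement found joined to different constant genes. They run 5′ to 3′ in lower case, from the deposited receptor tables.
anti-CTLA-4 IGHV2-3 IGHJ4: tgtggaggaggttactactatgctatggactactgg
isotype IGHV1-72 IGHJ1: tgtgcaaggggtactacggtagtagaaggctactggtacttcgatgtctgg
isotype IGHV1-12 IGHJ3: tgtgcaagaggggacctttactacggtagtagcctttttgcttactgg
isotype IGHV1-42 IGHJ4: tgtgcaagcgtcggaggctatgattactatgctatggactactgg
isotype IGHV1-82 IGHJ4: tgtgcagtatggatggactactgg
isotype IGHV8-8 IGHJ3: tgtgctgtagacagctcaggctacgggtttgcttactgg

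In the IGHV1-72 clone all 10 cells were plasma cell-like, 5 with an IgG2c and 5 with an IgM receptor. The IgG2c cells held 623 to 1553 Ighg2c UMIs and 0 to 8 Ighm UMIs each, and the IgM cells held 151 to 580 Ighm UMIs and at most 1 Ighg2c UMI. Each cell of this clone thus transcribed the constant gene of its own receptor and next to nothing of the other. Jchain was transcribed on both sides, with 453 to 791 UMIs in the IgG2c cells and 291 to 1175 UMIs in the IgM cells. The IGHV2-3 clone had 6 IgG2b plasma cell-like cells with 445 to 1764 Ighg2b UMIs each, and 1 IgG2c cell with 1434 Ighg2c UMIs and no Ighg2b UMI. In the IGHV1-12 clone, 3 IgG1 cells held 474 to 814 Ighg1 UMIs and 2 IgG2c cells held 96 and 668 Ighg2c UMIs. Of these 5 barcodes 4 were plasma cell-like, and 1 with an IgG2c receptor clustered with T cells. Whether that barcode held 1 cell was not tested. The IGHV1-42 clone lay within the germinal centre B-like state. Its IgG1 cell held 25 Ighg1 UMIs and no Ighm UMI, and its 4 IgM cells held 2 to 32 Ighm UMIs, with 2 Ighg1 UMIs in 1 of them. Cells of the last 2 clones held more transcripts of other classes. The IGHV1-82 clone had 2 IgG1 cells with 9 and 913 Ighg1 UMIs and 3 IgG2b cells with 583 to 887 Ighg2b UMIs, and the IgG2b cells also held 0 to 68 Ighm UMIs each and 34 Ighg1 UMIs in 1 cell. The IGHV8-8 clone had 2 IgG2b cells, 1 IgG2c cell with 861 Ighg2c and 36 Ighm UMIs, and 1 germinal centre B-like IgM cell with 18 Ighm UMIs.

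After filtering, 8362 cells of the depleted anti-CTLA-4, 8305 of the depleted isotype, 10599 of the anti-CTLA-4, 8847 of the isotype and 9030 of the saline control library were kept, with medians of 4258 to 6018 UMIs per cell. Any 2 libraries shared 90 to 138 cell barcodes. Cells were clustered without immunoglobulin genes and without Jchain, and clusters were named from marker genes after they were seen. The leading genes of the germinal centre B-like cluster included Mef2b, Gcsam and S1pr2, genes known from germinal centre B cells, and the proliferation gene Mki67. The 9 genes took 278443 of the 261829444 UMIs of these cells, 0.106%. Ighm was found in 30693 cells with 94838 UMIs and Ighd in 10096 cells with 19958 UMIs. Igha, Jchain, Ighg2b, Ighg1 and Ighg2c each had 12658 to 83014 UMIs in 95 to 750 cells. Ighg3 had 253 UMIs in 137 cells and Ighe 42 UMIs in 25 cells, so their levels are the least certain.

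The B cell states differed in the genes they transcribed. Ighm and Ighd were spread over 3384 to 4109 follicular B-like cells in the libraries with B cells, while Igha and Jchain came from a few plasma cell-like cells. There were 9, 4, 23, 43 and 7 plasma cell-like cells in the depleted anti-CTLA-4, depleted isotype, anti-CTLA-4, isotype and saline control libraries. They held 97.0%, 96.4%, 90.03%, 96.9% and 97.6% of all Jchain UMIs, and 99.2%, 99.5%, 94.2%, 98.1% and 95.1% of Igha UMIs, in that order. A library's total for these genes is therefore set by very few cells. A single cell gave 1137 of 1150 Ighg2c UMIs in the depleted anti-CTLA-4 library, 1981 of 2009 Ighg2b UMIs in the depleted isotype library and 844 of 892 Ighg1 UMIs in the saline control library.

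**Figure D1:**
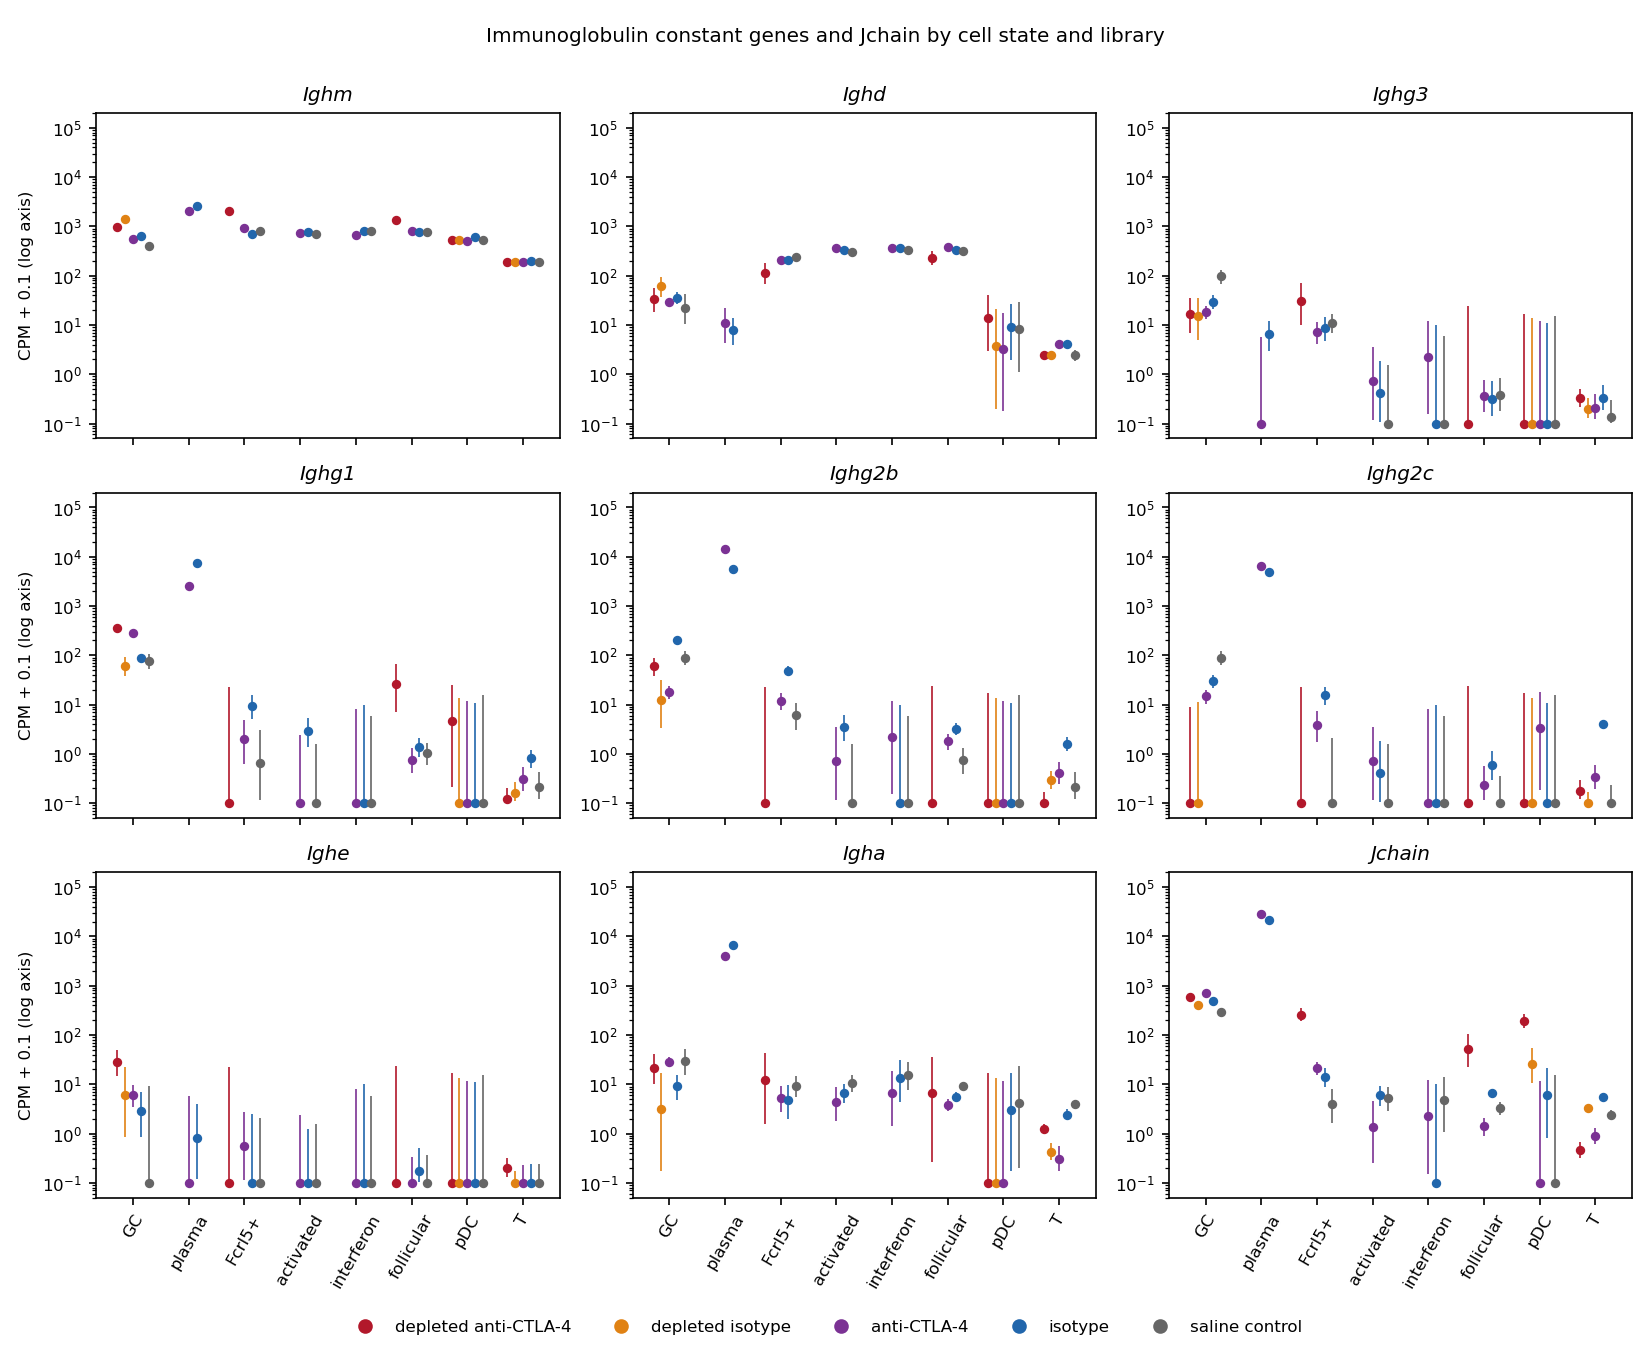
Levels of the 9 genes by cell state and library. Each panel shows 1 gene, with CPM plus 0.1 on a log axis, cell states along the other axis, a point per library where a state had at least 20 cells, and bars for the 95% Poisson interval. Jchain stood highest in plasma cell-like cells (27953 CPM in the anti-CTLA-4 and 21382 CPM in the isotype library), and Ighd was high in follicular B-like cells and low in germinal centre B-like cells.

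Ighm encodes the heavy chain of IgM. Germinal centre B-like cells held it at 987 CPM in the depleted anti-CTLA-4, 1405 CPM in the depleted isotype, 549.6 CPM in the anti-CTLA-4, 627 CPM in the isotype and 399.8 CPM in the saline control library. It varied little between follicular B-like cells of the libraries with B cells, at 789 CPM in the anti-CTLA-4, 786 CPM in the isotype and 779 CPM in the saline control library. Within each of the 3 libraries with B cells the germinal centre B-like state had a lower Ighm level than follicular B-like cells, with ratios of 0.696 in the anti-CTLA-4, 0.797 in the isotype and 0.513 in the saline control library. The depleted anti-CTLA-4 library had 0.729 (0.616 to 0.865) and the depleted isotype library 1.31 (1.05 to 1.65). These rest on 24 and 15 follicular B-like cells. The germinal centre B-like state also held cells with switched receptors. Its cells with an IgM contig (55 of 181 anti-CTLA-4 and 29 of 75 isotype cells) gave 1150 of 1473 and 777 of 915 Ighm UMIs. In the saline control library 10 of 29 cells gave 155 of 162. The ratios thus describe the whole state. They do not give the level in IgM cells, nor show that IgM cells of this state held less Ighm than follicular B-like cells. Plasma cell-like cells reached 2086 CPM in the anti-CTLA-4 and 2648 CPM in the isotype library, ratios of 3.79 and 4.22 to the germinal centre B-like cells. The 7 plasma cell-like cells of the saline control library held only 31.3 CPM.

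Ighd, which encodes IgD, differed more between states than Ighm. It stood at 28.7, 34.9 and 22.2 CPM in germinal centre B-like cells of the anti-CTLA-4, isotype and saline control libraries, against 376, 336 and 314 CPM in follicular B-like cells of the same libraries. The ratios of germinal centre to follicular B-like cells were 0.0764, 0.104 and 0.0706. Because both genes share a transcript, Ighd UMIs per 100 Ighm UMIs compare the forms without regard to the library total, and the counts, which were not divided by length, are compared only between cell states. Germinal centre B-like cells had 5.23, 5.57 and 5.56 Ighd UMIs per 100 Ighm UMIs in the anti-CTLA-4, isotype and saline control libraries, against 47.6, 42.8 and 40.4 in follicular B-like cells. Activated B-like cells lay with the follicular ones at 50.7, 43.6 and 42.3, and B cells with high interferon-response genes at 54.0, 44.4 and 41.3. A state marked by Fcrl5, a receptor found on innate-like and memory B cells, lay between them at 22.8, 28.8 and 28.8. Among plasma cell-like cells the value was 0.513 in the anti-CTLA-4 and 0.291 in the isotype library, or 0.134 in the isotype library without the cells that also held T cell genes. Zfp318 followed the same order, with 19.8, 20.6 and 7.40 CPM in germinal centre B-like, 126, 108 and 114 CPM in Fcrl5-positive and 191, 172 and 170 CPM in follicular B-like cells of the anti-CTLA-4, isotype and saline control libraries. Over the 21 sums of a state in a library with at least 20 cells, Zfp318 was also the gene whose log2(CPM + 1) was most like that of Ighd among genes outside the immunoglobulin loci, with a Pearson r of 0.986. Arhgef18, an activator of small GTPases, followed at 0.972 and the ribosomal protein gene Rps24 at 0.971. These points share libraries and states, so the values are descriptions.

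Cells whose receptor contig named IGHD made more of their constant transcripts from Ighd. In B lineage cells with an IgD contig, Ighd gave 45.01%, 44.1% and 42.6% of constant gene UMIs in the anti-CTLA-4, isotype and saline control libraries (664, 559 and 487 cells). In cells with an IgM contig it gave 25.0%, 22.0% and 26.2%. The receptor contig of an unswitched cell thus moved with the splice form its expression library had caught. Both were read from the cDNA of the same cell, so they are not independent readouts.

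Ighm was not confined to B cells. T cells, named by Cd3e and Cd3d, held Ighm at 188 CPM in the depleted anti-CTLA-4, 187 CPM in the depleted isotype, 192 CPM in the anti-CTLA-4, 200.1 CPM in the isotype and 187 CPM in the saline control library. At least 1 Ighm UMI was found in 59.3%, 59.0%, 55.7%, 61.6% and 59.0% of these T cells, at medians of 5092 to 5976 UMIs per cell. With each cell thinned to 2000 UMIs the shares were 29.5%, 30.1%, 30.5%, 32.8% and 31.5%. The level was thus nearly the same in libraries with and without B cells: its ratio was 0.979 (0.948 to 1.01) in depleted anti-CTLA-4 over anti-CTLA-4 T cells and 0.935 (0.904 to 0.968) in depleted isotype over isotype T cells. Other B cell transcripts behaved differently in the same T cells. Igkc, the kappa light chain, stood at 1.28, 3.79, 5.23, 9.69 and 5.04 CPM, and Cd79a, a signalling chain of the B cell receptor, at 0.8999, 1.35, 11.6, 11.3 and 10.0 CPM, in the order given above. There were 147, 49.4, 36.7, 20.6 and 37.0 Ighm UMIs per Igkc UMI, so the 2 genes did not keep 1 ratio in T cells across libraries. T cells with no UMI of Cd79a, Cd79b, Ms4a1 or Igkc still held 185, 184, 191, 199.7 and 182 CPM of Ighm. Ighd was nearly missing there, with 1.25 to 2.13 Ighd UMIs per 100 Ighm UMIs in T cells.

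Ighm also differed between kinds of T cell. The cluster led by Foxp3, the factor of regulatory T cells, held 252 to 324 CPM over the 5 libraries. A CD4 cluster led by Ly6c1 held 208 to 238 CPM, and 2 of the CD8 clusters held 201 to 228 CPM and 203 to 242 CPM. The other CD8 cluster, led by Fam241a, held 135 to 146 CPM and a cluster led by Gzmm and other cytotoxic genes 147 to 161 CPM. None of these CPM ranges reached that of the Foxp3 cluster. The share of cells with Ighm, after the thinning used above, did overlap. It was 35.1% to 39.9% in the Foxp3 cluster and 32.0% to 37.4% in the Ly6c1 cluster. The first 2 CD8 clusters had 32.8% to 38.3% and 35.0% to 36.8%. In the saline control library the Foxp3 cluster, at 35.1%, lay below all of these. The Fam241a and Gzmm clusters stayed lower, at 22.9% to 28.7% and 23.8% to 27.0%. Low levels were found in a cluster led by Itm2a, at 71.8 to 141 CPM, and in one led by Lrig1, at 57.2 to 109 CPM, whose cells were also the shallowest at medians of 2384 to 3320 UMIs.

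Plasmacytoid dendritic cell-like cells, which make type I interferon, held more Ighm than T cells in each library. Their level was 526 CPM in the depleted anti-CTLA-4, 523 CPM in the depleted isotype, 501 CPM in the anti-CTLA-4, 619 CPM in the isotype and 532 CPM in the saline control library, from 21 to 32 cells each. The ratios to T cells of the same library were 2.80, 2.80, 2.61, 3.09 and 2.85. These cells also held Igkc, at 246 to 535 CPM, with Cd79a at 0 to 23.7 CPM. Other cells lay below T cells. NK-like cells held 84.8 to 111 CPM, migratory dendritic cell-like cells 81.9 to 147 CPM and innate lymphoid-like cells 21.5 to 67.2 CPM. For comparison, Ighm in follicular B-like cells was 3.93 to 4.17 times the T cell level in the 3 libraries with B cells, and Ighd 82.1 to 135 times. What part free RNA or B cells caught with T cells had in these levels was not tested beyond the values given.

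**Figure D2:**
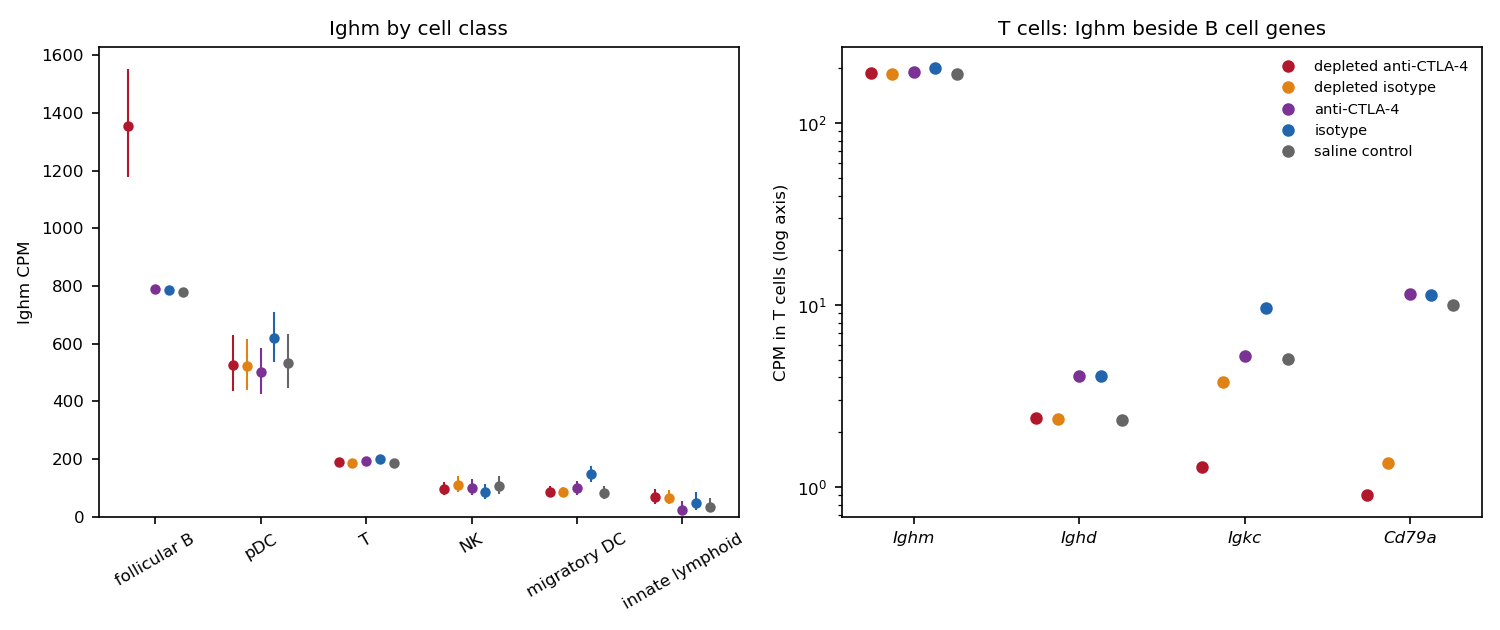
Ighm in cells other than B cells. The left panel gives Ighm CPM with 95% Poisson intervals by cell class and library, on a linear axis from 0, and the right panel gives Ighm, Ighd, Igkc and Cd79a CPM in T cells on a log axis. Ighm in T cells lies between 187 and 200.1 CPM in all 5 libraries, while Cd79a is near 1 CPM in the 2 depleted libraries and 10.0 to 11.6 CPM in the others.

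Germline transcripts were sought in cells whose only heavy chain contigs were IgM (with or without IgD). In such a cell a UMI of a switched constant gene may be a germline transcript or come from the other allele. It may also come from another cell under the same barcode or from free RNA, and its source was not tested. Germinal centre B-like cells of this kind numbered 55 in the anti-CTLA-4, 29 in the isotype and 10 in the saline control library, with medians of 18720, 22570 and 14346.5 UMIs. At least 1 UMI of a switched constant gene was present in 30 of the 55 (54.5%, 40.6% to 68.0%), 19 of the 29 (65.5%, 45.7% to 82.1%) and 3 of the 10. In T cells without a heavy chain contig of the same libraries the share was 0.564%, 2.97% and 2.06%, at medians of 5090, 5749 and 5701.5 UMIs. Follicular B-like IgM cells had 2.01%, 3.21% and 2.94%, and Fcrl5-positive IgM cells 12.7%, 16.4% and 11.9%. The share of germinal centre B-like IgM cells with any switched constant gene was thus above that of T cells in each library, although the germinal centre cells were also deeper.

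The genes concerned were spread along the locus. Ighg3, the first switched gene after Ighd, was seen in all 3 libraries: 12 of 55 cells in the anti-CTLA-4 (26 UMIs), 13 of 29 in the isotype (27 UMIs) and 3 of 10 in the saline control library (7 UMIs). Its level over T cells was 239 (73.3 to 1235), 156 (63.2 to 463) and 1071 (138 to 48258) in these libraries. Ighg1 was found in 10 of 55 cells with 41 UMIs in the anti-CTLA-4 library, in 1 of 29 cells with 2 UMIs in the isotype library and in 0 of 10 in the saline control library, where 0 allows a share of up to 30.8%. The ratio of anti-CTLA-4 to isotype was 14.1 (3.67 to 121). Ighg2b went the other way, with 7 of 55 cells and 15 UMIs in the anti-CTLA-4 library against 9 of 29 cells and 43 UMIs in the isotype library, a ratio of 0.240 (0.124 to 0.442). Ighg3 had a ratio of 0.664 (0.372 to 1.18), an interval that includes 1. Ighg2c was seen in 4 and 3 cells of the anti-CTLA-4 and isotype libraries, a ratio of 2.48 (0.888 to 8.55). Igha was seen in 9 and 1 cells and in 1 saline control cell, with 1 UMI each, and its ratio of anti-CTLA-4 to isotype was 6.20 (0.860 to 272). Its level over T cells was 49.7 (14.95 to 189), 0.599 (0.0149 to 3.47) and 1.49 (0.0372 to 8.46) in the anti-CTLA-4, isotype and saline control libraries, and that of Ighg1 was 189 (79.6 to 543.5) in the anti-CTLA-4 and 3.86 (0.434 to 16.1) in the isotype library. Igha in the isotype and saline control libraries and Ighg1 in the isotype library were thus not above T cells beyond counting error.

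Depth limits these shares. With cells thinned to 2000 UMIs, Ighg3 was seen in 3.64%, 13.8% and 0 of the IgM germinal centre B-like cells of the anti-CTLA-4, isotype and saline control libraries, against 21.8% and 44.8% in the first 2 and 3 of 10 cells in the last unthinned. Thinned values for Ighg1 were 5.45% in the anti-CTLA-4 and 0 in the isotype library, against 18.2% and 3.45%. The transcripts were mostly of 1 switched gene per cell: in the anti-CTLA-4 library 25 cells had none, 20 had 1 gene, 9 had 2 and 1 had 4, and in the isotype library the counts were 10, 12 and 5 for 0 to 2 genes and 2 for 3 genes. Most had their own IgM as the leading gene, but in 2 anti-CTLA-4 cells Ighg1 led over Ighm despite the IgM contig. Whether these 2 barcodes hold 1 cell each was not tested.

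Switched genes were also seen in IgM cells outside the germinal centre. In Fcrl5-positive IgM cells, Ighg3 was 62.5, 42.5 and 274 times and Ighg2b 43.4, 29.5 and 62.7 times the level of T cells in the anti-CTLA-4, isotype and saline control libraries. Ighg2b in anti-CTLA-4 over isotype was 0.319 (0.189 to 0.526) in Fcrl5-positive and 0.453 (0.227 to 0.869) in follicular B-like IgM cells, the same direction as in germinal centre B-like IgM cells. T cells without a heavy chain contig went that way too, with Ighg2b at 0.311 CPM in the anti-CTLA-4 and 1.43 CPM in the isotype library. Follicular B-like IgM cells held 4.15 (1.70 to 10.8) and 1.99 (1.18 to 3.32) times these T cell levels. In follicular B-like IgM cells, Igha was 22.4 (8.92 to 72.3), 1.97 and 1.80 times the level of T cells. Those follicular cells held 1 Igha UMI apiece for the most part, 2.75% of cells in the saline control library and 1.19% after thinning. Igha in T cells themselves was 0.173 CPM in the anti-CTLA-4 and 2.31 CPM in the isotype library, so the larger ratio in the anti-CTLA-4 library rests on a lower T cell level.

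**Figure D3:**
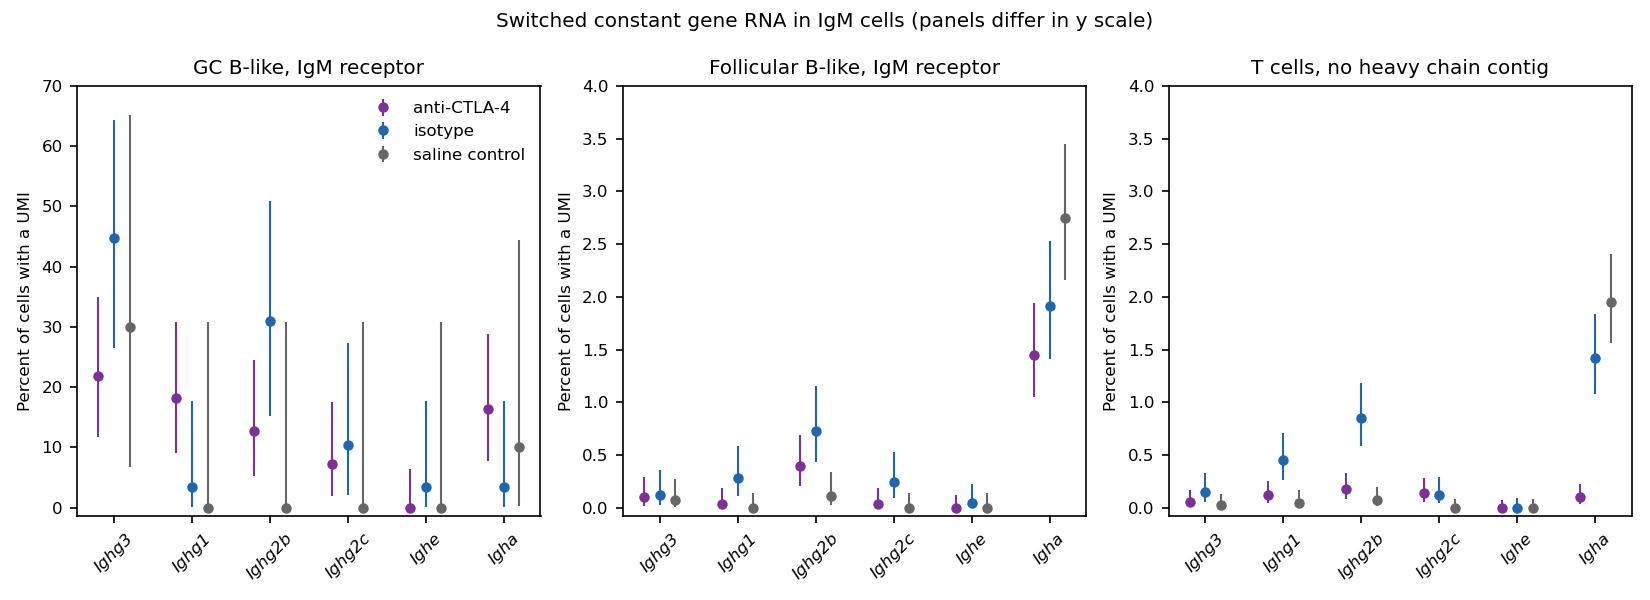
Percent of cells with at least 1 UMI of each switched constant gene, ordered along the locus, with 95% Clopper-Pearson intervals, in germinal centre B-like cells with an IgM receptor, follicular B-like cells with an IgM receptor and T cells without a heavy chain contig. The panels have different vertical scales. In germinal centre B-like IgM cells Ighg3 was found in 21.8% of the anti-CTLA-4 cells, 44.8% of the isotype cells and 3 of 10 saline control cells, and Ighg1 in 18.2%, 3.45% and 0.

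The class named by the receptor contig was set beside the constant gene with most UMIs in the same cell. They were the same in 151 of 174 cells with a switched receptor (86.8%, 80.8% to 91.4%), made up of 78 of 94 in the anti-CTLA-4, 53 of 58 in the isotype and 20 of 22 in the saline control library. They were the same in 10171 of 10183 IgM cells. Plasma cell-like cells with a switched receptor matched in 55 of 55 cells and germinal centre B-like cells in 82 of 102. Most of the mismatches were of 1 kind: 13 germinal centre B-like cells with an IgG1 receptor, 11 of them in the anti-CTLA-4 and 2 in the isotype library, held more Ighm and Ighd UMIs than Ighg1 UMIs. All 13 also held Ighg1. Over all 71 germinal centre B-like IgG1 cells, Ighm made up 19.1% of constant gene UMIs. Others involved the close relatives Ighg2b, Ighg2c and Ighg3. In the same state, 2 IgG3 cells of the saline control library and 3 IgG2c cells (2 anti-CTLA-4, 1 isotype) were led by Ighg2b. Whether these UMIs were assigned to the right gene was not tested.

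**Figure D4:**
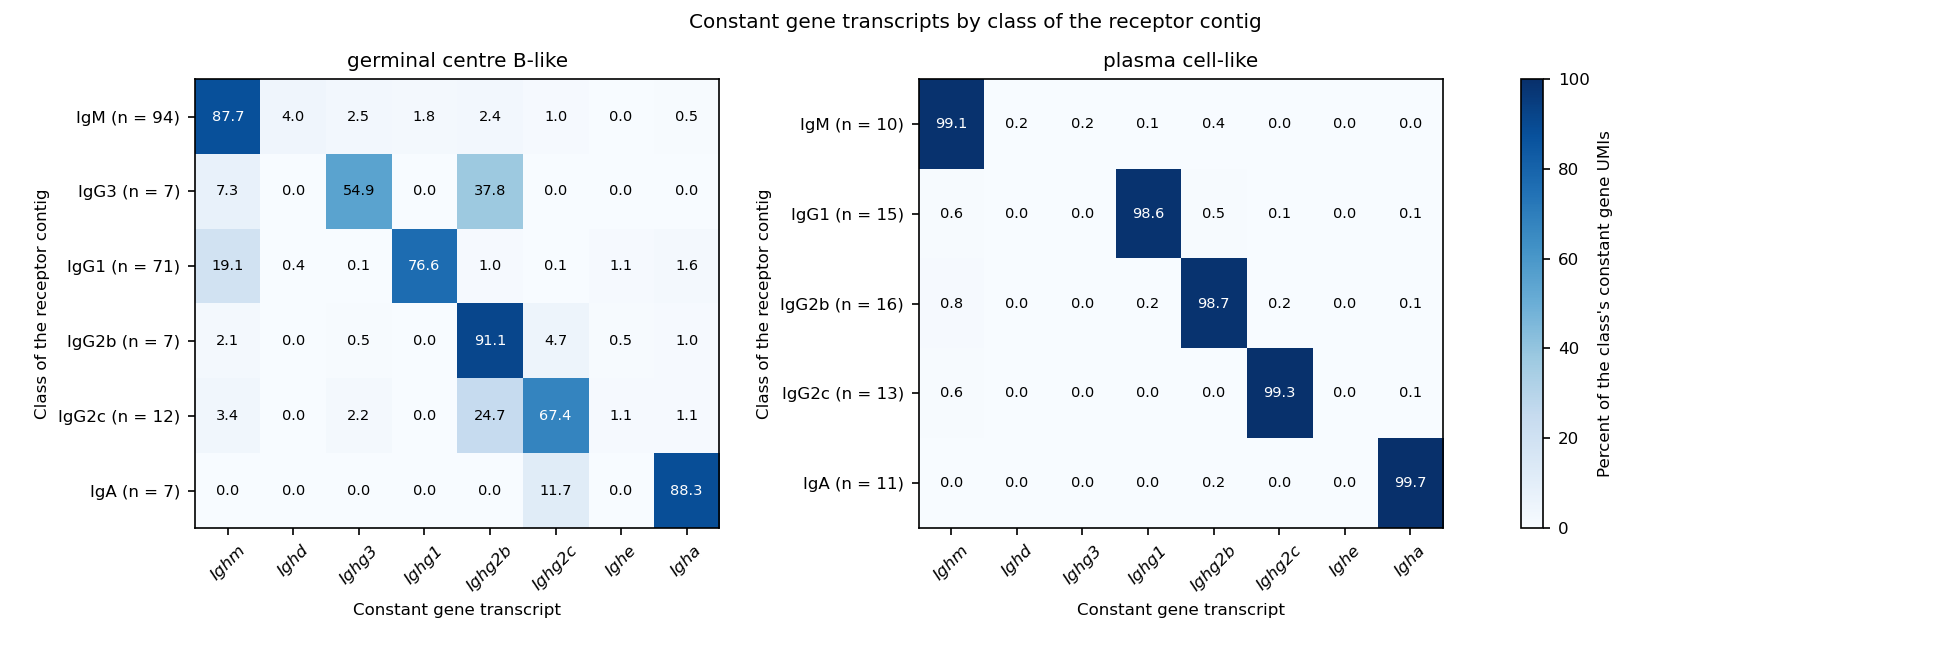
Share of constant gene UMIs by gene (columns) in cells grouped by receptor class (rows), pooled over the 3 libraries with receptor data, in the germinal centre state and the plasma cell state. Rows with few cells, such as IgG3, rest on 7 cells. In plasma cell-like cells nearly all UMIs are of the receptor's own gene, and in germinal centre B-like IgG1 cells 19.1% are Ighm.

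Within the germinal centre B-like state the class mix differed between the anti-CTLA-4 and isotype libraries, which this comparison addresses without the mix of states. There were 38, 24, 181, 75 and 29 such cells in the depleted anti-CTLA-4, depleted isotype, anti-CTLA-4, isotype and saline control libraries, with medians of 9458 to 17810 UMIs. Of the 9 genes, 5 had a ratio of at least 2 or at most 0.5 between anti-CTLA-4 and isotype, 3 higher and 2 lower. Of all genes with at least 20 UMIs over both libraries, 5.24% passed the same limits, 3.28% higher and 1.96% lower. Ighg1 held 289 CPM in the anti-CTLA-4 library (107 of 181 cells) and 89.1 CPM in the isotype library (16 of 75 cells), a ratio of 3.24 (2.69 to 3.93). With finer clustering the same ratio was 1.56. In the other libraries it was 366 CPM in the depleted anti-CTLA-4 (25 of 38 cells), 60.8 CPM in the depleted isotype (4 of 24) and 76.5 CPM in the saline control library (3 of 29). Ighg1 was thus seen in a larger share of germinal centre B-like cells in both libraries with anti-CTLA-4 than in the other 3.

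Ighg2b went in the opposite direction. It held 17.5 CPM in the anti-CTLA-4 library (22 of 181 cells) and 208 CPM in the isotype library (31 of 75 cells), a ratio of 0.0845 (0.0607 to 0.115). A single isotype cell gave 89 of the 303 UMIs, and without the top cell of each library the ratio was 0.104. With doublets kept it was 0.133. Ighg2c was lower as well, at 14.6 CPM in the anti-CTLA-4 and 30.1 CPM in the isotype library (0.483, 0.305 to 0.760). Igha was higher, at 28.7 CPM against 8.91 CPM in the isotype library (3.23, 1.78 to 6.33), but the ratio turned to 0.741 with finer clustering. Ighg3 had a ratio of 0.608 (0.394 to 0.940), Ighm of 0.877 (0.807 to 0.953) and Ighd of 0.822 (0.570 to 1.20). Jchain had a ratio of 1.47 (1.35 to 1.60). Ighm and Ighd thus differed less between these libraries than Ighg1 and Ighg2b did.

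Isotype was set against saline control in the same state, where 4 of 8 genes passed the limits against 9.01% of all genes. Ighg2b was higher, at 208 CPM in the isotype against 88.8 CPM in the saline control library (2.34, 1.65 to 3.40). Ighg3 was lower, at 29.5 CPM against 96.2 CPM in the saline control library (0.306, 0.194 to 0.485). Ighg2c, with a ratio of 0.339 (0.213 to 0.543), and Igha, with a ratio of 0.301 (0.127 to 0.721), were lower too. Ighg2c moved to 0.612 without cells that held T cell genes, and Igha to 0.972 with finer clustering. Ighg1 differed within its counting error, at 89.1 CPM in the isotype and 76.5 CPM in the saline control library (1.16, 0.782 to 1.78), and was 4.31 with finer clustering.

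Anti-CD20 left 38 and 24 germinal centre B-like cells in the depleted anti-CTLA-4 and depleted isotype libraries, and these had no receptor library. Their Ighm was higher than in the matching libraries with B cells, with ratios of 1.80 (1.61 to 2.00) for depleted anti-CTLA-4 over anti-CTLA-4 and 2.24 (2.00 to 2.51) for depleted isotype over isotype. Between these pairs 3 of 9 genes (15.5% of all genes) and 3 of 7 genes (13.2% of all genes) passed the limits. Ighg2b was 3.41 (2.01 to 5.65) times as high in depleted anti-CTLA-4 as in anti-CTLA-4 and had a ratio of 0.0586 (0.0159 to 0.152) in depleted isotype over isotype. Ighg2c had no UMI in either depleted library and was at least 2.03-fold lower than in the anti-CTLA-4 and at least 3.30-fold lower than in the isotype library, with 3 UMIs taken for 0 over all cells of the state. Ighg1 was 6.01 (3.76 to 10.1) times as high in the depleted anti-CTLA-4 as in the depleted isotype library, the same direction as in mice with B cells. In that pair 2 of 5 genes passed, against 10.6% of all genes, the other being Ighg2b at 4.91 (1.70 to 19.4), where 1 cell gave 19 of the 25 UMIs in the depleted anti-CTLA-4 library.

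The switched genes of the plasma cell-like state differed widely between libraries. Igha held 34630 CPM in the depleted anti-CTLA-4, 23000.5 CPM in the depleted isotype, 4003 CPM in the anti-CTLA-4, 6583 CPM in the isotype and 26678 CPM in the saline control library. Igha was thus higher in both depleted libraries and the saline control library than in the other 2, but in 9, 4 and 7 cells, of which the top cell alone gave 43.8%, 69.5% and 31.3% of the Igha UMIs. Ighg2b held 60.02, 11213, 14604, 5744 and 3559 CPM, and Ighg2c 4299, 0, 6391, 4952 and 0 CPM, in the same order. Ighg1 held 0, 0, 2590.1, 7487 and 3778 CPM. Only the anti-CTLA-4 and isotype libraries had 20 plasma cell-like cells or more, and between them 2 of 6 genes passed the limits, against 9.91% of all genes. Ighg1 had a ratio of 0.346 (0.328 to 0.364) and Ighg2b of 2.54 (2.47 to 2.62) in anti-CTLA-4 over isotype. These are the reverse of the directions in germinal centre B-like cells, where Ighg1 was higher and Ighg2b lower in the anti-CTLA-4 library, a difference that was not tested. The ratios rest on 23 and 43 cells and on few clones: the 9 anti-CTLA-4 cells with an IgG2b receptor belonged to 4 clones, and the 11 isotype cells with an IgG1 receptor to 9. Without the top cell of each library the Ighg1 ratio was 0.225.

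Over all cells of a library, Ighg1 was 46.3 CPM in the anti-CTLA-4 and 220 CPM in the isotype library (0.210, 0.201 to 0.220), so the library total followed the plasma cell-like cells. Plasma cell-like cells gave 68.1% of Ighg1 UMIs in the anti-CTLA-4 and 98.2% in the isotype library, and germinal centre B-like cells 31.1% and 1.20%. Of the 9 genes, 3 passed the limits in that contrast over all cells (3.03% of all genes), the others being Igha at 0.267 and Ighe at 2.60 (0.979 to 8.06). In isotype over saline control 4 of 8 passed (3.16% of all genes): Ighg1 at 11.9 (11.1 to 12.8), Ighg2b at 9.94, Ighg2c at 197 (142 to 281) and Jchain at 2.93 (2.87 to 3.00). All 4 were higher in the isotype library, against 2.01% of all genes, and that library had 43 plasma cell-like cells against 7 in the saline control library. Fewer cells of a type and less RNA per cell cannot be told apart in such totals.

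In follicular B-like cells Ighm was nearly equal between libraries, and Jchain and Ighg2b differed at low levels. Of 6 genes with enough UMIs, 1 passed the limits in anti-CTLA-4 over isotype (1.89% of all genes) and 2 in isotype over saline control (2.01% of all genes). Jchain held 1.30 CPM in the anti-CTLA-4, 6.42 CPM in the isotype and 3.13 CPM in the saline control library, with ratios of 0.203 (0.118 to 0.332) and 2.05 (1.41 to 3.01). Ighg2b held 1.69, 3.14 and 0.640 CPM, and was 4.90 (2.36 to 11.4) times as high in isotype as in saline control. The isotype library held 142 of the 144 cells of 1 follicular B-like subcluster, and without it the Jchain ratios were 0.204 and 2.03 and that of Ighg2b 4.97. In T cells of the same libraries 5 of 7 genes had a ratio of at most 0.5 in anti-CTLA-4 over isotype (0.778% of all genes), among them Jchain at 0.144 and Ighg2b at 0.207. These T cells included some with a heavy chain contig. Without them Ighg2c, another of the 5, was no longer lower, at 0.242 CPM in the anti-CTLA-4 and 0.199 CPM in the isotype library. Jchain was then at 0.794 and 3.18 CPM and Ighg2b at 0.311 and 1.43 CPM. Jchain and Ighg2b UMIs thus moved the same way in T cells, which should not express them, as in follicular B-like cells. Activated B-like cells had 1 of 4 genes past the limits in anti-CTLA-4 over isotype (2.99% of all genes), Jchain, on 2 and 19 UMIs (0.208, 0.0235 to 0.861), and 0 of 4 in isotype over saline control (2.69%). B cells with high interferon-response genes had 0 of 2 in either comparison (6.54% and 6.25%).

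Fcrl5-positive B cells held Ighm at 928, 713 and 812 CPM in the anti-CTLA-4, isotype and saline control libraries (292, 173 and 235 cells). Ighg2b stood at 11.7, 49.0 and 5.97 CPM and Ighg2c at 3.76, 15.2 and 0 CPM. Both genes were thus highest in the isotype library. In anti-CTLA-4 over isotype, 2 of 6 genes passed the limits (4.44% of all genes): Ighg2b at 0.239 (0.146 to 0.381) and Ighg2c at 0.246 (0.0953 to 0.571). Of the Ighg2c UMIs, 8 in the anti-CTLA-4 and 23 in the isotype library, 4 in each lay in cells with an IgM receptor. In those cells the ratio was 0.638 (0.119 to 3.43). The isotype library had only 2 cells of this state with an IgG2c receptor. In isotype over saline control 3 of 7 passed (4.49% of all genes), Ighg2b at 8.22 (4.34 to 17.2), Ighg2c at least 9.37-fold higher against 3 UMIs, and Jchain at 3.67. The Jchain ratio turned to 0.983 without the top cell of each library and to 0.680 without cells that held T cell genes.

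Jchain separated the states by orders of magnitude. Plasma cell-like cells held 43783 CPM in the depleted anti-CTLA-4, 47268 CPM in the depleted isotype, 27953 CPM in the anti-CTLA-4, 21382 CPM in the isotype and 45890.2 CPM in the saline control library, and a Jchain UMI was found in 8 of 9, 4 of 4, 23 of 23, 42 of 43 and 7 of 7 of them. Germinal centre B-like cells held 593, 404, 722, 491 and 294 CPM, in 63.2%, 66.7%, 82.9%, 73.3% and 72.4% of cells. Thinned to 2000 UMIs the shares were 37.8%, 58.3%, 65.2%, 44.0% and 35.7%, against 0.239% to 1.69% of T cells unthinned. Jchain in germinal centre over follicular B-like cells was 554 (358 to 909), 76.4 (61.3 to 96.3) and 93.8 (65.8 to 136) in the anti-CTLA-4, isotype and saline control libraries. In the depleted anti-CTLA-4 library it was only 11.4 (5.71 to 26.8), on 248 and 8 UMIs. Plasmacytoid dendritic cell-like cells of that library held 43 Jchain UMIs, 536 (306 to 974) times the T cell level. They held 7, 0, 2 and 0 UMIs in the depleted isotype, anti-CTLA-4, isotype and saline control libraries. Plasma cell-like over germinal centre B-like cells gave 38.7 and 43.6 in the anti-CTLA-4 and isotype libraries. Jchain therefore marked the germinal centre B-like cells as well as the plasma cell-like ones.

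The level also went with the class. In germinal centre B-like cells, IgG1 cells held 1.48 (1.33 to 1.65) times the Jchain of IgM cells in the anti-CTLA-4 library (63 and 55 cells), 1.93 (1.52 to 2.44) times in the isotype library (7 and 29 cells) and 4.92 (1.80 to 11.6) times in the saline control library (1 and 10 cells). At least 1 Jchain UMI was found in 61 of 63 IgG1 and 40 of 55 IgM cells of the anti-CTLA-4 library. Among plasma cell-like cells of the 3 libraries, the median cell held 56302 CPM in the 11 IgA cells, 24426 CPM in the 10 IgM cells, 15140 CPM in the 16 IgG2b cells, 14263 CPM in the 15 IgG1 cells and 12919 CPM in the 13 IgG2c cells. The IgA cells ranged from 4140.3 to 119375 CPM. Within libraries, IgA cells exceeded IgG1 cells by 6.21-fold in the anti-CTLA-4, 4.06-fold in the isotype and 2.67-fold in the saline control library. Only 1, 5 and 5 IgA cells stand behind these ratios. The higher IgM median came from the isotype library, where 5 of the 7 IgM cells belonged to the IGHV1-72 clone. In the anti-CTLA-4 library the 3 IgM cells held 13747, 17449 and 23460 CPM and the 3 IgG1 cells 1375, 21386 and 22317 CPM, and the classes overlapped.

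**Figure D5:**
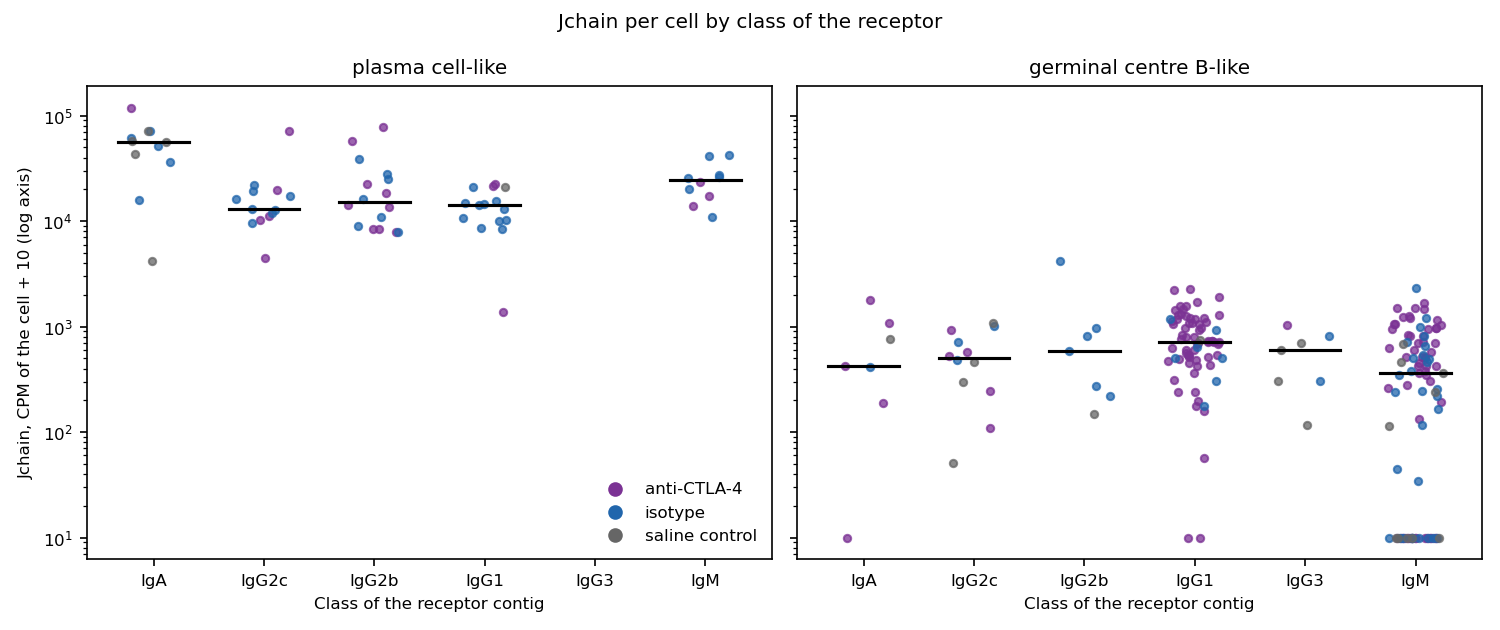
Jchain by receptor class. Each point is a cell, with Jchain CPM plus 10 on a log axis, in the germinal centre state and the plasma cell state of the 3 libraries with receptor data, and black lines mark medians. Plasma cell-like IgA cells have a median of 56302 CPM and IgG2c cells one of 12919 CPM, and the classes overlap.

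Ighe, which encodes IgE, had 42 UMIs in all, mainly in germinal centre B-like cells. There were 12 UMIs in 3 such cells of the depleted anti-CTLA-4, 2 in 2 of the depleted isotype, 16 in 8 of the anti-CTLA-4, 4 in 4 of the isotype and 0 in 29 cells of the saline control library. Ighe stood at 28.7, 6.08, 5.97, 2.74 and 0 CPM. The depleted anti-CTLA-4 level was 4.80 (2.07 to 10.8) times that in the anti-CTLA-4 library, but 8 of its 12 UMIs lay in 1 cell. The anti-CTLA-4 over isotype ratio of 2.18 had an interval of 0.703 to 8.95. No cell of the 3 receptor tables had an IgE contig. Of the 8 anti-CTLA-4 cells, 3 had an IgG1 receptor and 5 had no heavy chain contig, and 1 of the IgG1 cells held 4 Ighe UMIs and no Ighg1 UMI. Another 5 Ighe UMIs lay in 5 T cells of the depleted anti-CTLA-4 library.

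After anti-CD20 the 9 genes were affected unequally over all cells. In depleted isotype over isotype 8 of 8 passed the limits (12.9% of all genes), and in depleted anti-CTLA-4 over anti-CTLA-4 6 of 9 (11.6%). Ighd held 3.61 and 3.78 CPM in the depleted anti-CTLA-4 and depleted isotype libraries, against 134 and 131 CPM in the anti-CTLA-4 and isotype libraries, with ratios of 0.0269 and 0.0289. Ighm was reduced far less, at 245 and 211 CPM against 453 and 508 CPM, with ratios of 0.541 and 0.415. T cells held 71.6% and 83.3% of the Ighm UMIs left in the depleted libraries, against 22.9% and 20.2% in the anti-CTLA-4 and isotype libraries. Jchain kept 0.570 and 0.2503 of the level in mice with B cells, and Igha 3.22 and 0.388, with 9 and 4 plasma cell-like cells left. The top cell held 43.4% and 69.2% of Igha UMIs in the depleted anti-CTLA-4 and depleted isotype libraries. Between the depleted libraries 5 of 8 genes passed the limits (2.37% of all genes), Ighg2c by 1122 (201 to 44368), which rests on the single cell named above.

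The genes that act with these members were listed by role. Of 17 receptors and factors that direct germline transcription, none was at least 2-fold higher and 2 were at a ratio of at most 0.5 in anti-CTLA-4 over isotype germinal centre B-like cells. Of 14 genes of the switching machinery none passed in either direction, of 11 genes of heavy chain splicing and secretion 1 was higher and 2 were lower, and of 7 partners of the heavy chain none passed. Over all genes 5.24% passed in either direction. The median log2 ratios of the 4 lists were 0.04, -0.01, -0.06 and 0.10, against 0.07 over all genes. Among genes with at least 100 UMIs, Ell2, an elongation factor that favours the secreted form of the heavy chain, had the highest ratio at 2.40 (1.60 to 3.69). Batf, a factor needed for switching, was at 0.455 (0.337 to 0.611), and Derl3 and Pdia4, which serve protein folding and degradation in the endoplasmic reticulum, were at 0.444 and 0.469. Ell2 stood at 49.2, 20.6 and 61.7 CPM and Derl3 at 19.8, 44.5 and 19.7 CPM in the anti-CTLA-4, isotype and saline control libraries. For both genes the isotype library stood apart, and the anti-CTLA-4 level lay nearer that of saline control. In isotype over saline control 2 of 16, 1 of 12, 3 of 11 and 0 of 7 genes passed, against 9.01% of all genes. The median log2 ratios there were -0.05, 0.14, 0.53 and -0.04, against -0.03 over all genes, so the list of heavy chain splicing and secretion had the median farthest from that of all genes. Among the genes that passed were Batf at 2.04 (1.16 to 3.87) and Tgfbr1, a TGF-beta receptor chain, at 0.473 (0.326 to 0.693). In follicular B-like cells none passed in either comparison. The genes most like Jchain over the 21 sums were Ube2j1, a ubiquitin-conjugating enzyme of the endoplasmic reticulum (r of 0.964), Cacna1s (0.936) and Rps27l (0.930). Those most like Ighg1 were Edem1, which acts in degradation of misfolded glycoproteins (0.955), Reln (0.946) and Eaf2 (0.946), and those most like Ighm were Mcfd2 (0.820), Vsir (0.820) and Tspan13 (0.813).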

How the data were processed

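Raw counts of UMIs were used as deposited. Per the file headers Cell Ranger 7.0.1 made them, and the submitters' processing notes name bcl2fastq 2.20.0 and mm10. Receptor contigs came as UMI counts with a constant gene. No source used here states the intron or strand setting. Barcodes with at least 500 genes and at most 10% mitochondrial UMIs were kept. Scrublet's automatic threshold marked none in the depleted libraries, so the top scores were removed in all libraries (0.8% per 1000 barcodes; 645 to 1104 barcodes). Cells were clustered in scanpy 1.11.5 with 2000 variable genes, without 393 immunoglobulin genes (Jchain included) and 259 T cell receptor genes, with 30 components, 15 neighbours and Leiden resolution 1. Plasma cell-like cells had to be in that cluster both among all cells and among B cells, a rule set after the data were seen. UMIs were summed per state and library. CPM have exact Poisson, ratios exact conditional binomial and shares Clopper-Pearson 95% intervals. Only the ratio intervals were run on simulated data, with counts drawn as Poisson. Such counts lack the uneven spread of UMIs over cells seen here, so coverage in these data was not tested. Genes entered counts with at least 20 UMIs over both libraries, at limits of 2 and 0.5. All 9 members are named. Pathway genes are named with at least 100 UMIs among the 3 highest or lowest by the bound nearest 1, and like genes as the 3 with the highest r. Members and lists were chosen with earlier results of these data known.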

Additional observations from a re-analysis of the deposited data

Results flagged for a closer look

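For 6 results the anti-CTLA-4 over isotype ratio lay above 1 in the depleted libraries and below 1 in the libraries with B cells. The difference between them was not tested, since each ratio compares 1 library with 1 other. Over all cells Ighm had a ratio of 1.16 in the depleted libraries and 0.891 in the libraries with B cells, and Jchain of 1.35 and 0.593. Igha had 2.21 and 0.267, and 1 cell held 43.4%, 69.2%, 39.2% and 32.5% of Igha UMIs in the depleted anti-CTLA-4, depleted isotype, anti-CTLA-4 and isotype libraries. Ighg1 had 6.47 and 0.210: in the depleted libraries 96.2% and 83.3% of its UMIs lay in germinal centre B-like cells and none in plasma cell-like cells, and in the libraries with B cells 68.1% and 98.2% lay in plasma cell-like cells. Ighg2c had 1122 and 0.538, and 1137 of the 1150 UMIs of the depleted anti-CTLA-4 library lay in 1 cell. Within germinal centre B-like cells Ighg2b had 4.91 and 0.0845, where 1 cell gave 19 of the 25 depleted anti-CTLA-4 UMIs and 1 cell 89 of the 303 isotype UMIs.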

How the results depend on the processing

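No paired analysis was possible because each group had 1 library. There were 728 recomputed values of 146 results. Of those that answer a comparison 93 stayed within their counting error and 37 moved beyond it, and of those of single genes 516 stayed, 79 moved and 3 turned direction. The 3 that turned were Igha in germinal centre B-like cells, anti-CTLA-4 over isotype, at 0.741 with Leiden resolution 2, and Jchain in Fcrl5-positive cells, isotype over saline control, at 0.983 without the cell with most UMIs and 0.680 without cells with T cell genes. With median-ratio size factors, the all-cell ratios of Ighm were 0.840 (anti-CTLA-4 over isotype), 1.25 (isotype over saline control) and 0.402 (depleted isotype over isotype), and those of Jchain 0.559, 3.01 and 0.243. Without doublet removal Ighm had 1.19 (isotype over saline control), 0.525 (depleted anti-CTLA-4 over anti-CTLA-4), 0.445 (depleted isotype over isotype) and 1.07 (depleted anti-CTLA-4 over depleted isotype), and Jchain had 0.585, 0.306 and 1.12 in the last 3 of these; in germinal centre B-like cells, anti-CTLA-4 over isotype, Ighm had 0.990 and Ighg2b 0.133. There Ighg1 had 1.56 with Leiden resolution 2 and Jchain 1.66 without its top cells. Counting at least 2 UMIs, Ighg3 was found in 9.09% and 20.7% of germinal centre B-like IgM cells of the anti-CTLA-4 and isotype libraries; thinned, in 3.64% and 13.8%. Ighg1, thinned, was found in 5.45% and 0, and without the top cell in 0 of the isotype cells. In IgM contig cells alone, Ighd per 100 Ighm UMIs was 43.2, 38.1 and 37.4 in follicular B-like cells of the anti-CTLA-4, isotype and saline control libraries and 3.83 in germinal centre B-like cells of the anti-CTLA-4 library. Jchain without the top cell was 429 CPM in germinal centre B-like cells of the isotype library, and 23790 and 19989 CPM in plasma cell-like cells of the anti-CTLA-4 and isotype libraries. Scaled on UMIs outside immunoglobulin genes and Jchain, these 2 were 51674 and 38653 CPM, and over every cell of the cluster, an alternative chosen after seeing the data, 24982 and 19662 CPM. With no minimum of UMIs, 1 listed gene passed the limits in follicular B-like cells in each comparison, against 0. With doublets kept, the ratio of Ighg2c in depleted anti-CTLA-4 over depleted isotype was 188 in place of 1122. The causes of these moves were not tested beyond what each alternative leaves out. In the saline control library, a count of 0 allows a share of up to 11.9% of the 29 germinal centre B-like cells and up to 30.8% of the 10 with an IgM contig.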
